A study of Rattus norvegicus with 32 samples.

Results

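Of 16 dendrite libraries of single rat hippocampal neurons, 5 held Gad1 at 100 CPM or more, and these were compared with the other 11. CPM is a gene's count after each library is scaled to 1000000 gene counts. Gad1 encodes an enzyme that makes the transmitter GABA from glutamate. The 5 libraries are called the high group and the 11 the low group. The dendrites of neurons 7, 8, 13, 15 and 18 formed the high group, and those of neurons 9, 11, 14, 20, 21, 22, 23, 25, 26, 27 and 28 formed the low group. The groups were chosen by Gad1 CPM in the dendrites, so its level there is a description and was not tested.

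All 32 libraries of the series came from wildtype Sprague Dawley rats. Hippocampal cells of rat embryos (embryonic day 18) had grown in culture for 15 days, with no treatment named. From each of 16 neurons the soma and the dendrites were drawn into separate micropipettes, so that every dendrite library has a soma library of the same number. The labels call every neuron pyramidal in both groups, so the groups differ by a measured transcript and not by a label. Several cultures and days contributed neurons, but the sources used here do not tie a neuron to its culture or day, so a difference of culture or day and a difference between the groups cannot be told apart. P-values therefore measure the spread between these single neurons.

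In the hippocampus, pyramidal cells release glutamate, while GABA is released by interneurons, which load it into vesicles through the transporter Slc32a1. Many interneurons also make a neuropeptide such as somatostatin (Sst) and owe their identity to transcription factors such as Dlx1 and Lhx6. Pyramidal cells are marked by transcription factors such as Neurod6. Dendrites hold only part of a cell's mRNA, and a transcript can be present in the soma and scarce in the dendrites.

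Gad1 in the dendrites was 1833 CPM in neuron 7, 1069 in neuron 8, 269 in neuron 13, 923 in neuron 15 and 1306 in neuron 18. In the low group it ranged from 0 to 56.0 CPM, with a median of 4.59. The gap at the threshold lay between neuron 13, at 269 CPM, and neuron 9, at 56.0 CPM, with neuron 28 at 48.8 and neuron 25 at 48.0 CPM next. Exact 95% binomial intervals, which cover counting error only, placed neuron 9 between 52.3 and 59.8 CPM. The interval of neuron 25, the shallowest library with 11 Gad1 counts, ran from 24.0 to 85.9 CPM and so stayed under the threshold. No Gad1 count was found in the dendrites of neurons 11, 14, 22 and 23, and the interval of neuron 22 reached up to 3.44 CPM.

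Depth was uneven. The high dendrite libraries held 7992858 to 19263865 gene counts and the low ones 229149 to 24439768. The mean log2 total was higher in the high group by 1.80 (exact two-sided permutation test over the 16 libraries, p = 0.0774), and by 2.03 when the threshold was set at 50 CPM, which moves neuron 9 into the high group (exact p = 0.0325). The log2 ratio of gene counts to spike-in counts was 8.32 ± 1.05 (SD, n = 5) against 7.62 ± 1.35 (n = 11), with an exact permutation p of 0.325. After every library was thinned to 1071293 gene counts, 4297 ± 828 genes (SD, n = 5) held at least 5 counts in the high group and 3809 ± 1210 (n = 10) in the low group, with an exact permutation p of 0.442. The dendrites of neuron 25 were too shallow for this step.

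The low library of neuron 20 stood apart from the rest. Cytosolic ribosomal protein genes summed to 146762 CPM there and to between 18617 and 50679 CPM in the other 15 dendrite libraries. Its scaling factor from the trimmed mean of M-values (TMM) was 0.0915, against 0.666 to 1.95 in the other dendrite libraries. Its genes were therefore scaled up strongly in the TMM-scaled dendrite differences below. The factor of its soma library was 0.743. Values without neuron 20 are given for the lists they move most. Its dendrites were also closest in rank order to those of neuron 13, a high neuron: the Spearman correlation across genes was 0.734 at equal depth, the largest of all pairs of dendrite libraries.

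**Figure D1:**
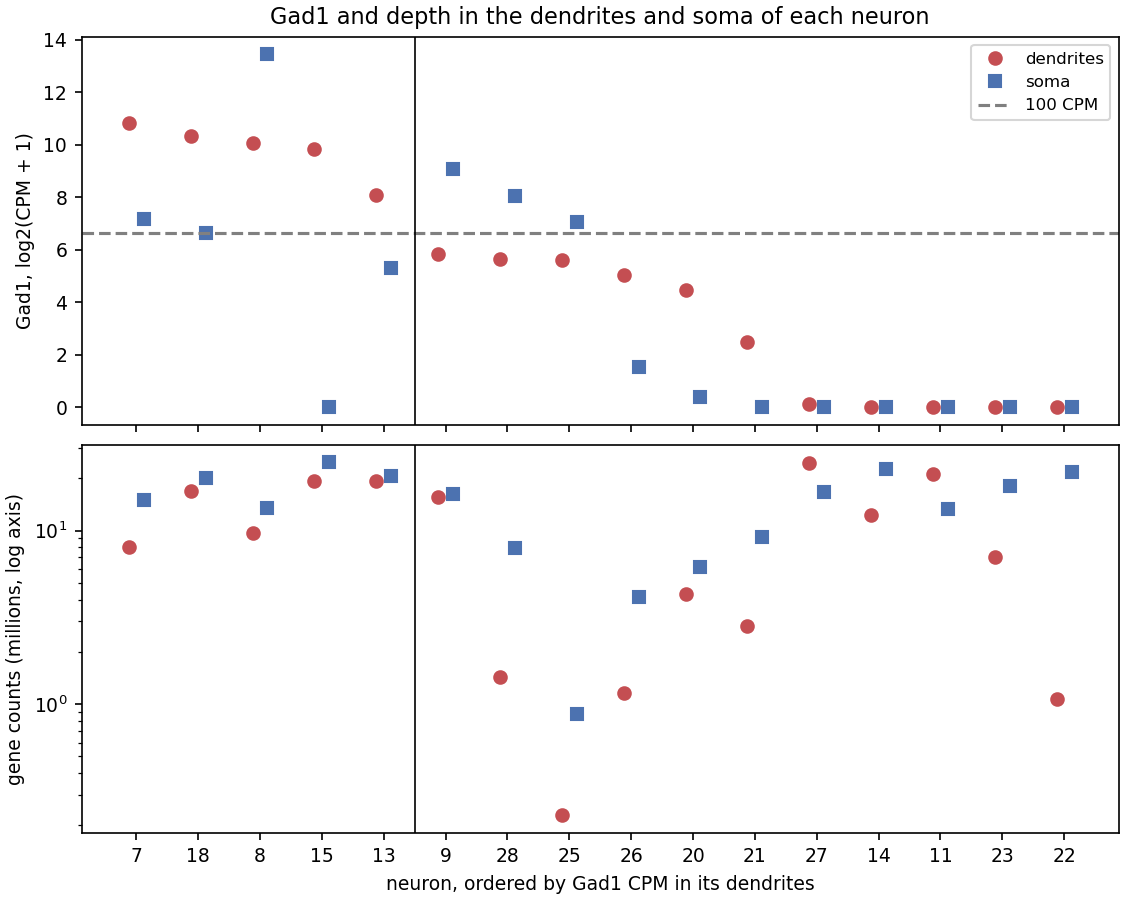
Gad1 as log2(CPM + 1) (top) and gene counts on a log axis (bottom) for the dendrites (circles) and soma (squares) of each neuron, ordered by dendrite Gad1. The vertical line separates the 5 high neurons from the 11 low ones, and the dashed line marks 100 CPM. Soma Gad1 ranges from 0 to 11161 CPM among the high neurons.

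The soma libraries, which the rule did not use, show how far Gad1 in the dendrites went with Gad1 in the cell body. Soma Gad1 was 144 CPM in neuron 7, 11161 in neuron 8, 39.1 in neuron 13, 0 in neuron 15 and 99.8 in neuron 18. In the somata of low neurons it ranged from 0 to 545 CPM with a median of 0, and the highest values were 545 in neuron 9, 261 in neuron 28 and 132 in neuron 25. The groups overlapped: neuron 15 had no Gad1 count in the soma but 923 CPM in the dendrites, and 3 low neurons had more soma Gad1 than 3 of the high ones. The mean of log2(CPM + 1) was 6.52 ± 4.81 (SD, n = 5) in the high group and 2.38 ± 3.71 (n = 11) in the low group, a difference of 4.15 with an exact two-sided permutation p of 0.0893. Without neuron 8 the difference was 2.41 (exact p = 0.275), and without neuron 15 it was 5.78 (exact p = 0.0278). With neuron 9 placed in the high group it was 5.25 (exact p = 0.0255).

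Across all other genes, no gene passed the edgeR test between high and low dendrites. Of 6797 genes tested with edgeR's quasi-likelihood test, 0 had an adjusted p under 0.05, which is 0.0% in either direction. At an unadjusted p under 0.05, 99 genes (1.46%) were higher in the high group and 287 (4.22%) lower, 5.68% in all. Whatever their p, 46.4% of the genes had a difference above 0 and 53.6% below. DESeq2 called 71 genes, 6 higher (0.0883%) and 65 lower (0.956%), and limma-voom called 0. Of the genes described below, DESeq2 called Eepd1, Fam195a, Extl2, Lpl, Exosc9 and RGD1309534 in the dendrites. The median log2 difference, high minus low, over all genes tested was -0.13, which is the level against which the medians of all 16 neurons below stand. The same level was -0.46 without neurons 7 and 8, -0.25 without neurons 7, 8 and 9, and -0.06 without neuron 20. It was -0.37 with DESeq2's size factors and -0.02 with library totals as the only scaling.

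Reln was nearest to the threshold. It encodes reelin, a secreted matrix protein made in the hippocampus by Cajal-Retzius cells and by some interneurons. Reln stood at 170 CPM in the dendrites of neuron 7, 50.2 in neuron 8, 22.8 in neuron 13, 3833 in neuron 15 and 0.059 in neuron 18. In the low group it ranged from 0 to 10.6 CPM with a median of 0.064. Of the 5 high libraries, 4 lay above every low library, and the dendrites of neuron 18 lay among the low ones. The fitted log2 difference was 8.70 ± 1.70 (SE), with an adjusted p of 0.162 from edgeR. Without neuron 15 it was 4.68 (edgeR adjusted p = 0.998), and without neuron 18 it was 9.02 (adjusted p = 0.0429).

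In the soma Reln was 0 in neuron 7, 720 CPM in neuron 8, 213 in neuron 13, 63.3 in neuron 15 and 0.050 in neuron 18, and up to 71.9 in the low group. Thus the 3 high neurons 8, 13 and 15 held Reln above 20 CPM in both compartments, while neuron 7 held it in the dendrites alone. The soma difference was 4.56 ± 2.02 (SE) on the log2 scale, with an edgeR adjusted p of 1.00, and 2.72 without neuron 8.

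Slc32a1, the vesicular GABA transporter, was present in 3 of the 5 high libraries. It was at 388 CPM in the dendrites of neuron 7, 469 in neuron 8, 0 in neuron 13, 286 in neuron 15 and 0.059 in neuron 18. In the low group the range was 0 to 310 CPM with a median of 0. The highest low value belonged to neuron 21, whose dendrites held Gad1 at only 4.59 CPM, so the groups overlapped. The log2 difference was 3.08 ± 1.91 (SE; edgeR adjusted p = 0.875), and 5.58 without neuron 21.

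Gad2, the other GABA-making enzyme, reached at most 11.9 CPM, in neuron 8, and did not pass the filter on low counts. Of 6 genes listed for GABA synthesis, packaging and uptake, Gad1 included, 2 other than Gad1 were tested. Slc32a1 had a difference above 0, and Slc38a1, an amino acid transporter that carries glutamine, had one of -1.59 ± 2.23 (SE; edgeR adjusted p = 0.986).

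Somatostatin, one of the markers given for this comparison, was present in a pair of high libraries. Sst was at 689 CPM in the dendrites of neuron 7, 371 in neuron 8, 3.02 in neuron 13, and 0 in neurons 15 and 18. The low group ranged from 0 to 11.02 CPM, with a median of 0. The fitted difference was 6.82 ± 1.96 (SE; edgeR adjusted p = 0.620), and it was -0.82 without neurons 7 and 8. In the soma the order was different: Sst was 10.3 CPM in neuron 7 and 36.6 in neuron 8, while the soma of neuron 9, a low neuron, held 858. The soma difference was -1.81 ± 2.69 (SE; edgeR adjusted p = 1.00), and it was 4.96 without neuron 9.

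Nxph1, a secreted ligand of neurexins, was likewise at 400 CPM in neuron 7 and 278 in neuron 8, at 0 in the other 3 high libraries, and at most 8.73 in the low group. Its log2 difference was 7.25 ± 2.24 (SE; edgeR adjusted p = 0.620). Penk, the precursor of enkephalin peptides, lay in other libraries: 1017 CPM in neuron 15, 61.3 in neuron 8, 45.0 in neuron 13, 0.13 in neuron 7 and 0 in neuron 18, against at most 19.6 in the low group. Its difference was 6.35 ± 2.03 (SE; edgeR adjusted p = 0.620), and 3.28 without neuron 15. The peptide and subtype genes thus shared high libraries only in part. The dendrites of neuron 8 held Sst, Nxph1 and Penk, with Reln at 50.2 CPM. Those of neuron 7 held Sst and Nxph1, with Reln at 170 CPM and Penk at 0.13. Those of neuron 15 held Reln and Penk with neither Sst nor Nxph1.

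Cck, which encodes cholecystokinin and is made by interneurons and by some pyramidal cells, was at 84.8 to 516 CPM in 4 high libraries and at 33.1 in neuron 13. Of the 11 low libraries, 7 held it at 10 CPM or more, and the low range was 0 to 226 CPM. Cnr1, the cannabinoid receptor of cholecystokinin interneurons, was at 392 to 2860 CPM in the high group and 6.53 to 1145 in the low group. Calb2, which encodes the calcium-binding protein calretinin, was at 34.8 CPM in neuron 13 and under 1 in the other 4 high libraries, against a low median of 18.7 and a highest low value of 413. Of 26 peptide, calcium-binding and subtype genes in the files, 11 were tested. Of these, 8 differed above 0, 4 of them (Reln, Sst, Nxph1 and Penk) at an unadjusted p under 0.05, and 0 passed the adjusted threshold. Over all genes 46.4% differed above 0 and 1.46% were higher at that p. The 3 below 0 were Calb1 (-1.55), Calb2 (-3.61) and Cnr1 (-0.50). Of the untested members, Crh reached 246 CPM, Tac1 88.7 and Nos1 15.7 in the low group, against at most 0.41 in the high group. Kcnc2, Pnoc, Crhbp, Htr3a and Vip went the other way. They reached 129, 70.7, 34.4, 22.1 and 20.5 CPM in the high group, against at most 3.40 in the low group. The median of the 11 tested was 1.56. It was -0.82 over 9 tested members without neurons 7 and 8, and -0.41 when a gene had to pass the filter in 8 of 16 libraries.

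Some interneuron transcription factors were present in only a few libraries, while others were widespread. Etv1 was at 10 CPM or more in all 5 high libraries and in 9 of the 11 low ones. Its range was 51.1 to 538 CPM in the high group and 0.14 to 260 in the low group. Dlx1 was at 197 CPM in neuron 7, 337 in neuron 8, 1.14 in neuron 15 and 0 in neurons 13 and 18, and no low library exceeded 0.23. It had counts in too few libraries to be tested. Lhx6 was at 24.1 and 25.4 CPM in neurons 7 and 8, at 0 in the other 3, and at 17.5 in the low neuron 25. The value of neuron 25, the shallowest library, came from fewer than 10 counts, whereas neurons 7 and 8 each held at least 10. Nr2f2, a nuclear receptor of interneurons from the caudal ganglionic eminence, was at 83.3 CPM in neuron 7, 36.1 in neuron 8, 21.9 in neuron 18 and 0 in neurons 13 and 15, and at most 14.6 in the low group. Nr2f2 was thus present in neuron 18, where Dlx1 and Lhx6 had no count.

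Other factors were as high or higher in low libraries. Satb1, a chromatin organiser of some interneurons, was at 267 CPM in neuron 7, 3.40 in neuron 8, 287 in neuron 13, 0 in neuron 15 and 142 in neuron 18, and at up to 306 in the low group, where 6 libraries held it at 10 CPM or more. Dlx5 was at 209 CPM in the low neuron 28 and at most 4.50 in the high group. Nkx2-1, a factor of interneurons from the medial ganglionic eminence, was at 144 CPM in the low neuron 25, and Sox6 at 16.7 in the low neuron 28, and both were at 0 in all 5 high libraries.

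The Nr2f2 difference was 3.54 ± 1.97 (SE; edgeR adjusted p = 0.844). Of 15 listed factors in the files, 4 were tested: Etv1, Lhx6, Nr2f2 and Satb1. All 4 of these differences were above 0, beside 46.4% of all genes. Dlx5, Nkx2-1 and Sox6, each highest in a low library, had counts in too few libraries to be tested, as had Dlx1. The 4 tested factors therefore do not stand for the whole list. The median of the 4 was 2.49, and 1.59 over 3 tested members without neurons 7 and 8. None of the 4 passed the threshold by edgeR, adjusted or unadjusted.

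Counted per library, 46 interneuron-list genes other than Gad1 gave a graded picture. At 10 CPM or more, the dendrites of neuron 8 held 19 of them, neuron 7 held 16, neurons 13 and 15 held 11 each and neuron 18 held 6. The low libraries held 2 to 11, with a median of 6. Neuron 18 had the second highest Gad1 of all dendrites, at 1306 CPM, and the fewest interneuron-list genes of the high group. In that library Slc32a1, Sst, Nxph1, Penk, Dlx1 and Lhx6 were at 0.059 CPM or less.

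In the somata the count was 18 in neuron 8 and 18 in the low neuron 9, 11 in neuron 15, 8 in neuron 7, 7 in neuron 13 and 6 in neuron 18. The dendrites of neuron 7 thus held 16 and its soma 8, whereas the dendrites of neuron 9 held 9 and its soma 18. An exchange of labels among neurons 7, 8 and 9 was not tested, and results without these 3 neurons are given among the alternatives: the transcription factor median was then 1.69 over 3 tested members.

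**Figure D2:**
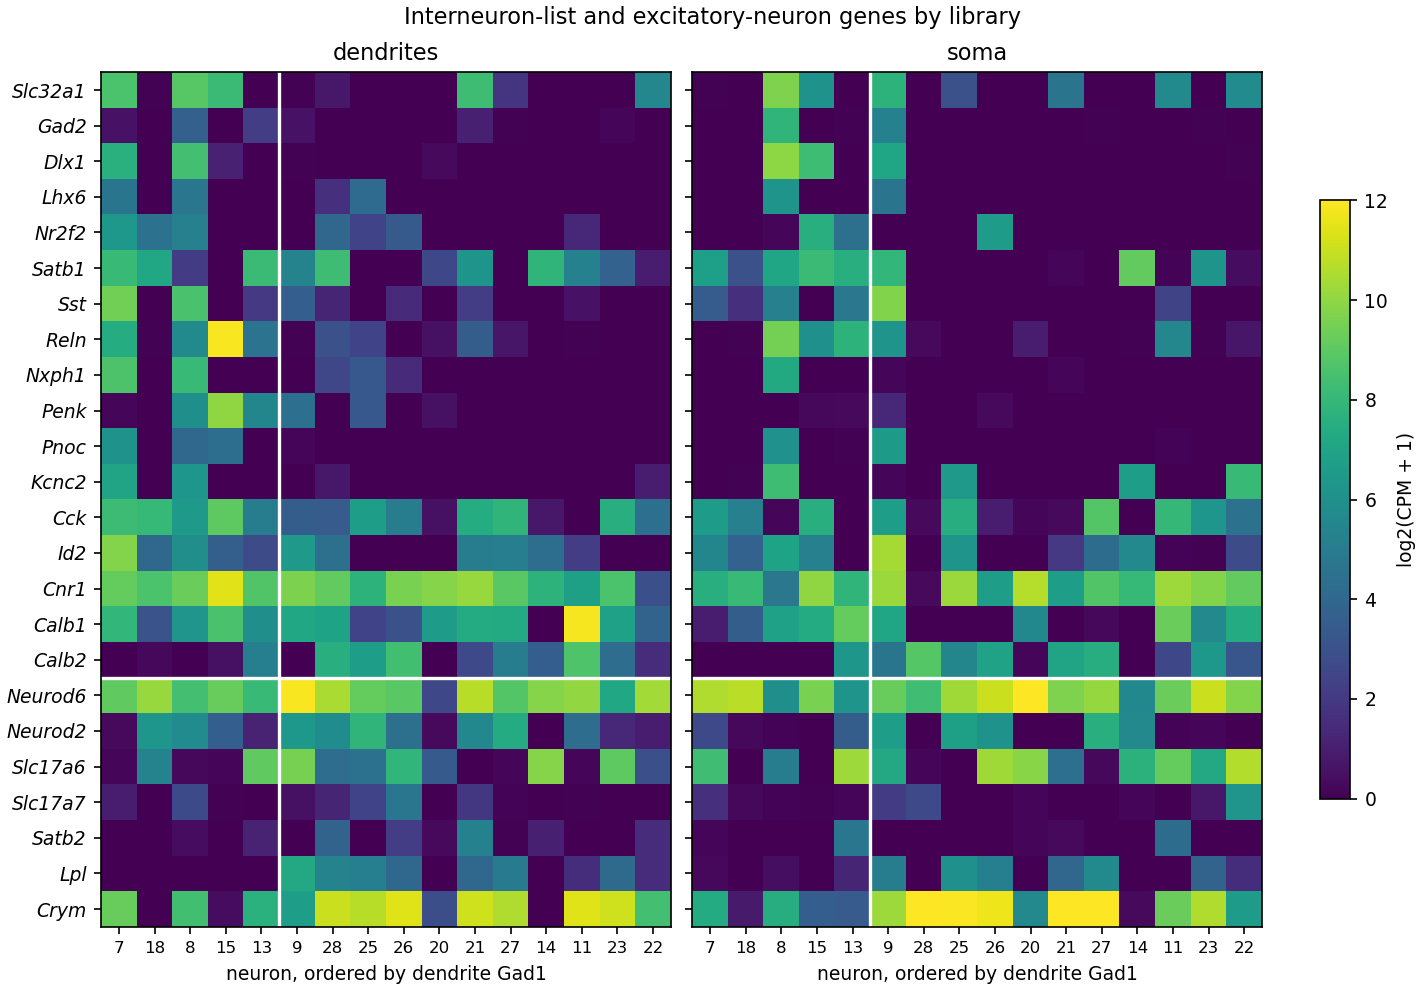
log2(CPM + 1) of interneuron-list genes (above the horizontal line) and of excitatory-neuron genes with Lpl and Crym (below it) in dendrites (left) and soma (right), with neurons ordered by dendrite Gad1 and the colour scale ending at 12. The vertical line separates the high from the low neurons, and the genes were picked for display after their values were seen. Sst and Nxph1 fill the dendrite columns of neurons 7 and 8, and Neurod6 is present in all 5 high columns.

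Genes of excitatory neurons were present in every high library. Neurod6 was at 542 CPM in the dendrites of neuron 7, 337 in neuron 8, 279 in neuron 13, 586 in neuron 15 and 1123 in neuron 18, against 5.11 to 3767 (median 915) in the low group. The high values lay inside the low range, and the log2 difference was -0.91 ± 0.92 (SE; edgeR adjusted p = 0.961), or -0.46 without neuron 9. The vesicular glutamate transporter Slc17a6 was at 533 CPM in neuron 13 and 39.7 in neuron 18 but at most 0.21 in neurons 7, 8 and 15, the 3 high libraries with Slc32a1. In the low group it ranged from 0 to 892 CPM with a median of 18.8. In the low neuron 21, the other library rich in Slc32a1, Slc17a6 was at 0, and in the low neuron 22 Slc32a1 was at 45.7 CPM beside Slc17a6 at 6.53. Somata could hold both: Slc32a1 and Slc17a6 were at 817 and 32.4 CPM in neuron 8, 212 and 153 in neuron 9, 52.1 and 572 in neuron 11, and 53.6 and 1545 in neuron 22.

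Slc17a7, the transporter of mature pyramidal cells, was scarce in the dendrites, at 0 to 5.57 CPM in the high group and 0 to 25.1 in the low group. In the soma its highest value was 76.0 CPM, in the low neuron 22. Of 15 excitatory markers in the files, the high dendrites held 6 to 10 at 10 CPM or more and the low dendrites 2 to 11. In all, 14 were tested, 10 with a difference below 0, beside 53.6% of all genes, and 0 at an unadjusted p under 0.05 by edgeR, and their median was -0.87. With a threshold of 50 CPM the median was -0.09. In the soma 12 of 13 tested markers lay below 0, beside 53.9% of all genes there (46.1% above), 1 of them at an unadjusted p under 0.05, and the median was -2.40 against -0.12 for all genes there. It was -0.88 over 11 tested members without neurons 7, 8 and 9.

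The dendrites of neurons 7 and 8 also carried astrocyte transcripts. Of 19 astrocyte markers in the files, 14 were at 10 CPM or more in neuron 7, 13 in neuron 8, 10 in neuron 13, 2 in neuron 15 and 3 in neuron 18, and 1 to 15 in the low libraries. The 15 belonged to neuron 25, the shallowest library, where 3 counts already are 13.1 CPM. Their summed level was 113 to 3271 CPM in the high group (median 426) and 62.1 to 2086 in the low group (median 669). Gfap, the astrocyte filament protein, was at 123 CPM in neuron 7, 22.1 in neuron 8, 2.09 in neuron 13 and 0 in neurons 15 and 18. Aldh1l1, Slc1a2 and Slc7a11 were at 0 in all 5 high libraries. The list's median difference was 0.49 with all neurons and -2.01 without neurons 7 and 8. The part of these transcripts in the interneuron-list values of neurons 7 and 8 was not tested. In the dendrites of neuron 15, which held Slc32a1, Gfap, Aqp4, Slc1a3 and Gja1 were at 0, while Sparcl1 was at 143 CPM and Mt3 at 25.96.

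Each list of another cell type had fewer markers at 10 CPM or more than the astrocyte list in every high library, though not always a lower sum. Of 13 microglia markers, 9 had no count in any high library and 8 had none in any low library. Aif1, Cx3cr1 and C1qa had none in either group. The summed list reached 88.0 CPM in the high group and 153 in the low group. Of 15 endothelial, mural and fibroblast markers, 10 had no count in the high group and 3 had none in the low group. The sum was 0.26 to 445 CPM against 1.46 to 796. Dcn and Sparc were at 202 and 238 CPM in neuron 7, and at up to 737 and 140 in the low group. In neuron 18 Lum was at 323 CPM, against at most 109 in the low group. The sum there, 333 CPM, lay above the astrocyte sum of 113. Of 14 oligodendrocyte markers, 4 were at 0 in all high libraries and 2 in all low libraries. The sum was 15.7 to 63.9 CPM against 9.99 to 319. Mki67, a protein of dividing cells, was at 0 in all 5 high libraries and at up to 48.0 CPM in the low group, and Sox2, a factor of neural progenitors and astrocytes, was at 42.7 and 35.2 CPM in neurons 7 and 8 and at most 2.09 in the low group.

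Beyond the marker lists, the genes with the smallest p among those higher in the high dendrites were, after Reln, Fam195a, Eepd1, Extl2 and Zfp37, and all 4 had an edgeR adjusted p of 0.620. By DESeq2 the adjusted p was 0.00470 for Fam195a, 0.000610 for Eepd1 and 0.0228 for Extl2, and DESeq2 gave none for Zfp37. Eepd1, a nuclease-domain protein, was at 68.1 CPM in neuron 7, 242 in neuron 8, 9.70 in neuron 13, 45.3 in neuron 15 and 0 in neuron 18. In the low group it was at most 4.36. Its soma values went the other way, at 0 in all 5 high neurons and up to 446 CPM in the low neuron 27 (soma edgeR adjusted p = 0.956). Extl2, a glycosyltransferase of heparan sulphate synthesis, was at 166 CPM in neuron 7 and 470 in neuron 15, at 3.92 or less in the other 3, and at most 3.73 in the low group. Fam195a rested on neuron 15, at 339 CPM, with 18.4 and 20.2 in neurons 8 and 13. In the soma the log2 difference was 0.90 for Fam195a and 3.35 for Extl2. Zfp37 rested on neuron 15 alone, at 834 CPM against 1.501 or less in the other high libraries. In each of these genes at least 1 high library lay among the low ones.

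Lpl had the smallest p among genes lower in the high group. It encodes lipoprotein lipase, a secreted lipid-hydrolysing enzyme. Lpl had 0 counts in all 5 high dendrite libraries, and in the low group it ranged from 0 to 148 CPM with a median of 15.6. In all, 7 low libraries held it at 10 CPM or more, and neurons 14 and 20 had none. Measured against a floor of 3 counts over the whole high group, the low mean gave a bound of 675-fold. The difference had an edgeR adjusted p of 0.620 and a DESeq2 adjusted p of 2.68e-07. Without neuron 9 the bound was 381-fold. Placing neuron 9, the library with 148 CPM, in the high group turned the log2 difference to 0.82. In the soma Lpl was at most 1.40 CPM in the high group and up to 63.8 in the low group (median 13.1), with an edgeR adjusted p of 1.00 and a log2 difference of -5.66 ± 2.78 (SE).

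Exosc9, a subunit of the RNA exosome, was at 0 to 2.54 CPM in the high dendrites against a low median of 65.5 and a highest value of 1123 (edgeR adjusted p = 0.620). Prepl, a serine hydrolase, was at 0.52 CPM or less in the high group, with a low median of 24.0 and a highest value of 1960 in neuron 20. Cdh9, a cadherin of cell adhesion, was at 0.13 CPM or less, with its highest value, 383, again in neuron 20. RGD1309534 was at 0 in all 5, with a low median of 0.87 CPM. Its low mean was 951-fold above the same floor and rested on 5 low libraries at 10 CPM or more. All 5 of these lower genes also had low libraries without a count, so the groups overlapped at 0. In the soma the log2 difference was 0.05 for Exosc9, with 321 CPM in the high neuron 7. It was -0.90 for Prepl and -3.03 for RGD1309534, and Cdh9 was not tested there.

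Only 3 of the 6797 genes had every high dendrite library above every low one (0.0441%), and 0 genes had every high library below (0.0%). These 3 genes were chosen for that pattern after their values were seen. Rasgrf1, a calcium-regulated exchange factor for Ras, was at 154 CPM in neuron 7, 187 in neuron 8, 89.3 in neuron 13, 91.6 in neuron 15 and 174 in neuron 18, and at 0 to 52.6 (median 9.07) in the low group. The highest low value belonged to neuron 9, the library just under the Gad1 threshold. Its log2 difference was 2.82 ± 1.29 (SE; edgeR adjusted p = 0.833).

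Gnb1, a G protein beta subunit, ranged from 22.8 to 266 CPM in the high group and from 0 to 21.8 in the low group, so the groups nearly touched. Its log2 difference was 3.80 ± 1.52 (SE; edgeR adjusted p = 0.732). Atp6v1d, a subunit of the vesicular proton pump, ranged from 516 to 1671 CPM against 80.9 to 492, with a log2 difference of 1.02 ± 0.86 (SE; edgeR adjusted p = 0.959) that was 1.78 without neuron 20.

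**Figure D3:**
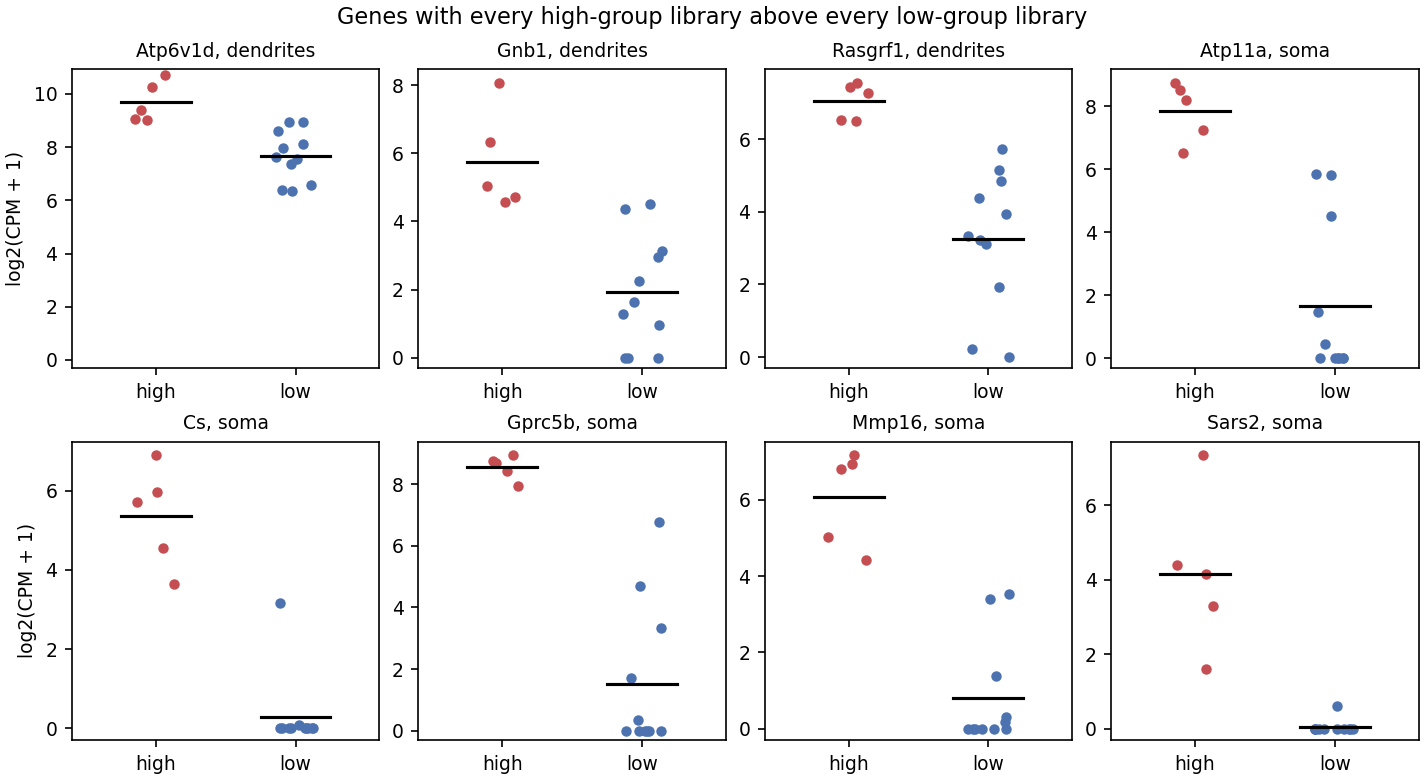
log2(CPM + 1) of the 8 genes whose 5 high-group libraries (red) all lie above the 11 low-group libraries (blue), 3 in dendrites and 5 in soma; points are libraries and bars are group means. The gap is narrow for Gnb1 in dendrites (22.8 against 21.8 CPM) and wide for Gprc5b in soma (241 against 108 CPM).

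Of 10 tested genes for GABA receptors and their scaffold at inhibitory synapses, 8 lay below 0, 1 of them at an unadjusted p under 0.05, and the median was -0.43. Over all genes 53.6% lay below 0 and 4.22% were lower at that p. Gabarapl2, a protein of the receptor-trafficking and autophagy family, was at 6.40 to 49.3 CPM against 0.49 to 725 (median 53.4), a log2 difference of -3.17 ± 1.40 (SE; edgeR adjusted p = 0.807).

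With all neurons, the glutamate receptor genes had a median of -0.14 over 9 tested, the synaptic vesicle genes 0.02 over 19, the dense core vesicle genes 0.21 over 10 and the immediate early genes -0.06 over 13. Among 21 tested classical dendritic mRNAs the median was -0.12. Without neurons 7 and 8 the medians were -1.24 for the glutamate receptors, -0.48 for the synaptic vesicle genes, 0.02 for the dense core vesicle genes, -0.68 for the immediate early genes and -1.24 for the dendritic mRNAs, against -0.46 for all genes. Without neuron 20 they were -0.34, -0.04, 0.35, -0.29 and 0.08 in the same order, against -0.06 for all genes. Bdnf, the activity-induced neurotrophin, was at 339 CPM in neuron 7, 1773 in neuron 8, 97.8 in neuron 13, 221 in neuron 15 and 79.1 in neuron 18, against 0.16 to 703 (median 60.0) in the low group. Its log2 difference was 2.01 ± 1.08 (SE; edgeR adjusted p = 0.844), and 0.33 without neuron 8.

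The fitted difference of ribosomal protein genes rested on neuron 20. Of 78 tested, 75 lay below 0 and 25 of these had an unadjusted p under 0.05, beside 4.22% of all genes. Their median log2 difference was -2.55, but -0.34 without neuron 20, -0.64 with library totals as the scaling and -0.16 with limma-voom. The summed CPM was 22002 to 40455 in the high group (median 34425) and had a median of 33015 in the low group, so the typical levels lay close together. Rps27a was at 209 to 354 CPM in the high group against 133 to 5553 (median 646), the highest again in neuron 20. The counts of these genes are uncertain to the extent that reads from pseudogenes were shared.

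Nuclear-encoded genes of oxidative phosphorylation were at a median of 0.00 over 73 tested, 37 above 0 and 36 below, and at 0.47 without neuron 20. Their summed CPM had a median of 48010 in the high group (range 23800 to 50483) and 25487 in the low group (19321 to 44033). Neurons 7, 8 and 15 were above every low library, and neurons 13 and 18 were inside the low range. Tubulin and microtubule genes had a median of -0.55 over 22 tested, and -0.04 without neuron 20.

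**Figure D4:**
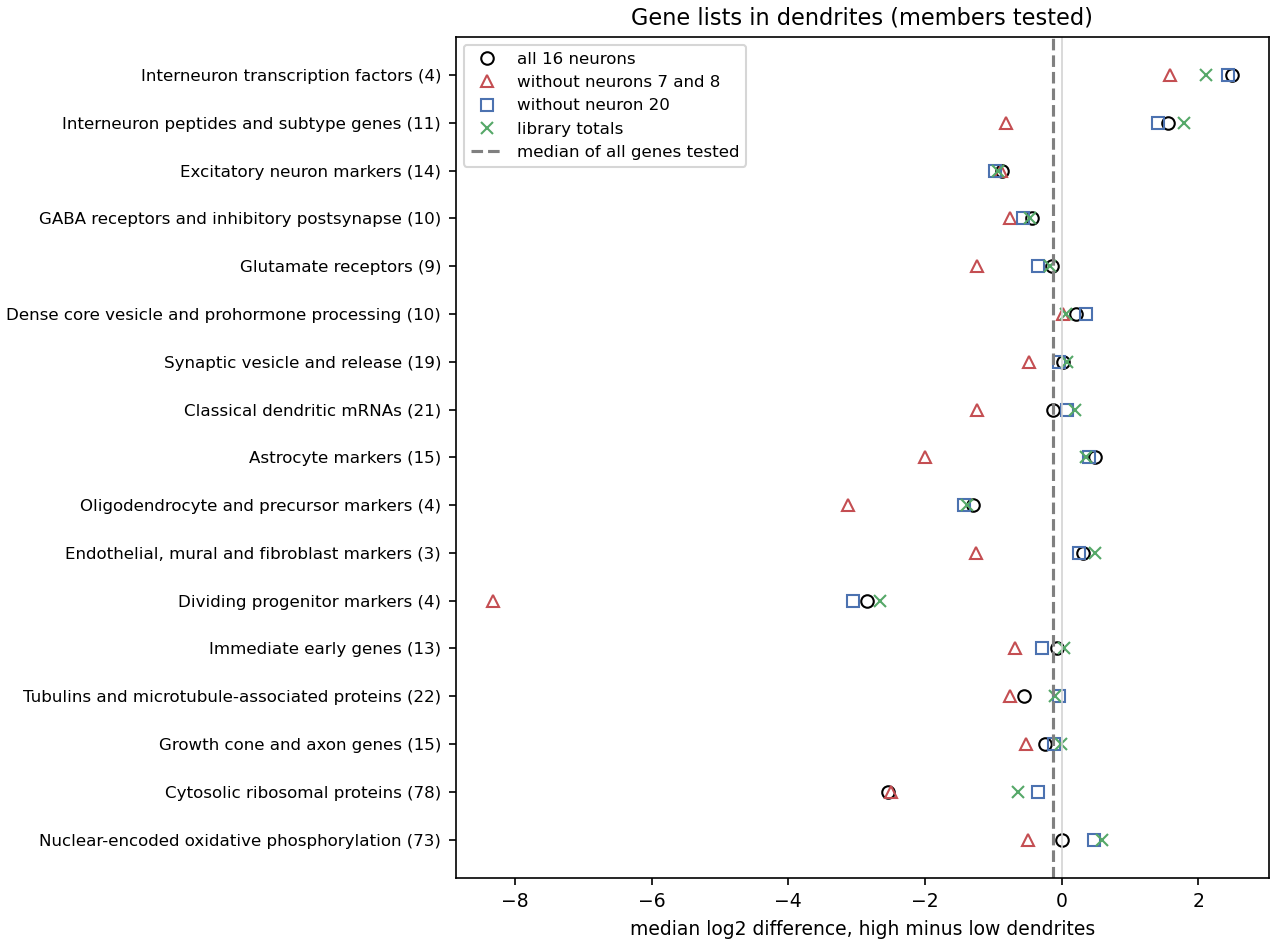
Median log2 difference, high minus low dendrites, over the tested members (number in parentheses) of each gene list with at least 3 tested, for all 16 neurons, without neurons 7 and 8, without neuron 20 and with library totals as the scaling. The dashed line is the median of all genes tested, -0.13. The ribosomal median is -2.55 with all neurons and -0.34 without neuron 20, and the astrocyte median 0.49 and -2.01 without neurons 7 and 8.

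In whole-transcriptome rank order the high dendrites were not set apart from the low ones. At equal depth the mean Spearman correlation across genes was 0.490 over the 10 pairs of high libraries, 0.446 over 45 pairs of low libraries and 0.467 over 50 pairs across the groups. The ranges overlapped, at 0.422 to 0.566 within the high group and 0.392 to 0.734 across. These correlations describe pairs that share libraries, and they were not tested.

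The somata of the same neurons were compared in the same way. Of 6858 genes tested with edgeR, 0 had an adjusted p under 0.05 (0.0%). At an unadjusted p under 0.05, 150 genes (2.19%) were higher in the somata of the high neurons and 120 (1.75%) lower, 3.94% in all. DESeq2 called 8 genes higher (0.117%) and 38 lower (0.554%), and limma-voom, in which the median over all soma genes was 0.59, called 12 higher (0.175%). Of the soma genes described here, DESeq2 called Tpp1, Mgea5, Sars2, Lrrcc1 and Crym. Tpp1, a lysosomal peptidase, was nearest to the threshold: 50.4 CPM in the soma of neuron 7, 54.6 in neuron 8, 5.04 in neuron 13, 0 in neuron 15 and 113 in neuron 18, with a count in only 1 of 11 low somata. Its log2 difference was 11.73 ± 2.10 (SE; edgeR adjusted p = 0.0595). Tpp1 passed the filter on low counts only through the high somata of neurons 7, 8, 13 and 18. It was therefore not tested when 1 of these was left out. In the other 12 fits with a single neuron left out, its edgeR adjusted p was 0.0223 to 0.365. Mgea5, the enzyme that removes O-GlcNAc from proteins, was at 5.76 to 56.4 CPM in 4 high somata and at 0 in neuron 15. In the low group it was at most 0.24 (edgeR adjusted p = 0.453), so it too passed the filter through high somata alone.

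In soma, 5 genes had every library of the high group above every library of the low group (0.0729% of genes tested), and 0 had every one below. Gprc5b, an orphan G protein-coupled receptor, was at 241 CPM in neuron 7, 487 in neuron 8, 428 in neuron 13, 409 in neuron 15 and 345 in neuron 18, against 0 to 108 (median 0) in the low group. The 5 high values lay close together, and 6 of 11 low somata had no count. The log2 difference was 5.35 ± 1.75 (SE; edgeR adjusted p = 0.956). Atp11a, a phospholipid flippase, was at 89.6 to 424 CPM against 0 to 56.9, and Mmp16, a membrane-bound matrix protease, was at 20.3 to 143 against 0 to 10.6.

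Cs, which encodes citrate synthase of the mitochondrial matrix, was at 11.5 to 118 CPM against 0 to 7.97. Sars2, the mitochondrial seryl-tRNA synthetase, was at 2.02 to 161 CPM against 0 to 0.52, and passed the filter on low counts through high somata alone. The edgeR adjusted p of these 4 genes ranged from 0.453 for Sars2 to 1.00 for Atp11a. limma-voom called all 5 genes among its 12, but on the same values for which they were chosen, so these calls are not separate support. None of the 5 was among the 3 genes that stayed apart in the dendrites.

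Crym, which encodes a thyroid hormone-binding protein of forebrain neurons, was at 165 CPM in the soma of neuron 7, 175 in neuron 8, 9.88 in neuron 13, 11.1 in neuron 15 and 0.80 in neuron 18. In the low somata it ranged from 0.22 to 8410 CPM with a median of 1531, and 10 of 11 held at least 10 CPM. The log2 difference was -5.12 ± 1.54 (SE; edgeR adjusted p = 0.955). In the dendrites Crym was at 590, 328 and 203 CPM in neurons 7, 8 and 13, 0.31 in neuron 15 and 0 in neuron 18, against a low median of 1650 (log2 difference -2.67 ± 1.61, SE; edgeR adjusted p = 0.872). Mfsd9, Lrrcc1 and Serinc5 had 0 counts in all 5 high somata, while their low medians were only 1.30, 0.49 and 0.97 CPM. In each gene 3 low somata also had no count. Against a floor of 3 counts over the high group, the low means gave bounds of 2495-fold or more. These bounds rested on single somata: they fell to 2012-fold for Mfsd9 and 1271-fold for Lrrcc1 without neuron 23, and to 768-fold for Serinc5 without neuron 28. Each rested on 4 or 5 low somata at 10 CPM or more, and all 3 had an edgeR adjusted p of 0.955.

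The difference of the contrast between dendrites and soma was tested in all 32 libraries. Of 6794 genes, 0 passed an adjusted p under 0.05 by edgeR (0.0%), and 348 (5.12%) had an unadjusted p under 0.05. This fit had no term for the neuron, so it did not use the pairing of soma and dendrites. With the neuron as a block, 0 genes passed as well, and 188 had an unadjusted p under 0.05. In the fit without the block, Slc32a1 had an interaction of 0.06 and Reln of 4.13 on the log2 scale, dendrites minus soma. Of the 386 dendrite genes with an unadjusted p under 0.05, 313 were also tested in soma. There, 199 of them (63.6%) had the same sign, beside 55.4% of the 6245 genes tested in both compartments, and 18 (5.75%) had the same sign with an unadjusted p under 0.05 in soma, beside 1.94% of the genes tested in both. Reln was 1 of these 18, with Hic2, Sdc2, Txnip and Rxrg among the genes with a lower fitted value. Soma and dendrite libraries of 1 neuron share that neuron, so the 2 comparisons are not independent samples of animals.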

How the data were processed

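Counts per gene were deposited by the authors as 1 table of whole-number counts for each of the 32 libraries, with 17216 gene rows and 92 spike-in rows. Per the labels' protocols, poly(A) RNA went through 3 rounds of antisense RNA (aRNA) amplification before stranded, paired-end sequencing. Genome build rn6 is named, per the submitters' processing notes. An aligner, an annotation and a rule for strand or for reads shared by gene copies are not given in the sources used here. No molecular identifiers are named, so the counts are not independent molecules.

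CPM was computed over gene rows only. Groups followed Gad1 CPM in the dendrites. Members, gene lists and tests were chosen with earlier results of these data known. Genes entered a fit with at least 10 counts, scaled to the median library (1.13 CPM in dendrites and 0.64 CPM in soma), in 4 of 16 libraries whatever their group, or 8 of 32 for the difference between compartments. edgeR 4.0.16 in R 4.3.3 used TMM scaling, robust glmQLFit and glmQLFTest, with Benjamini-Hochberg adjustment over all genes tested and a threshold of 0.05. An SE is the absolute log2 difference over the square root of F. Gad1 stayed in the fits and was never counted. DESeq2 1.42.0 and limma 3.58.1 were alternatives. Single values were tested by exact permutation over all regroupings of the neurons. For 5 and 11 neurons these were 4368, with the smallest possible p of 0.000229. The test of genes detected used 5 and 10 libraries. Tests at 50 CPM or with neurons left out had other group sizes and so other numbers of regroupings. The scripts were tested on simulated data.

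Named genes were to be up to 10 per direction past the threshold with an absolute log2 difference of at least 1, filled to 5 per direction by the smallest unadjusted p. The rule added the GABA and interneuron lists, 6 excitatory genes and up to 3 members of each other list. Of these, those that bear on the comparison are described. Crym in dendrites, Dlx1 and the genes whose groups did not overlap were described after their values were seen. So were the soma values of Lpl, Nxph1, Penk, Eepd1, Fam195a, Extl2, Exosc9, Prepl and RGD1309534. Some genes are not reported here and were left out of the lists.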

Additional observations from a re-analysis of the deposited data

Results flagged for a closer look

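Within the high group, 34 sets of 5 dendrite values were examined for a library far from the other 4, and 7 had one. The rule gives such a library by chance in about 1 in 20 sets only where values are normally distributed. Sets made mostly of zeros, as for Cdh9 and Slc38a1, are not, and many genes were picked for large differences. The 7 of 34 therefore cannot be set against that rate. Neuron 15 lay far below the others in the log2 ratio of gene counts to spike-in counts, at 6.501 with the nearest at 8.48. Zfp37 stood far above in neuron 15, at 9.71 on the log2(CPM + 1) scale with the next library at 1.32, and so did Cnr1, at 11.48 with the next at 9.27. Slc38a1 was found in neuron 15 alone, at 3.01 with all others at 0. Calb2 stood far above in neuron 13, at 5.16 with the next at 0.55. Prepl in neuron 13 (0.61, next 0.14) and Cdh9 in neuron 7 (0.17, all others 0) were set apart by values under 1 CPM. No difference of the contrast between dendrites and soma passed the adjusted threshold in edgeR.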

How the results depend on the processing

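Leaving out each neuron in turn gave 0 to 1 genes past the edgeR threshold in dendrites, 0 to 3 in soma and 0 to 0 for the difference between compartments. In dendrites 1 gene (Reln) passed with library totals or with no filter, and without neuron 18, and 71 passed with DESeq2. In soma 487 passed with no filter, 46 with DESeq2, 12 with limma-voom, 5 with the log2 library total as covariate and 1 at equal depth. The single soma calls came without neuron 11 (Slc39a7), 14 (Htr2c) or 15 (Tpp1), and the 3 without neuron 25 were Cs, Net1 and Tpp1. The cause was not tested. With the neuron as a block, which pairs the soma and dendrites of 1 cell as the series text states, the difference between compartments again had 0 genes past the threshold (188 at an unadjusted p under 0.05, against 348 without the block). The depth difference was 1.39 to 2.07 with single neurons left out and 2.03 at a threshold of 50 CPM. The soma Gad1 difference was 2.41 to 5.78 with single neurons left out, 5.25 at 50 CPM and 2.29 without neurons 7, 8 and 9. A threshold of 200 CPM gives the same groups as 100 CPM.

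Some genes turned direction. At a threshold of 50 CPM, Lpl was at 0.82, Neurod6 at 0.66, Slc17a6 at 0.31, Slc38a1 at 1.78 and soma Sst at 7.80. Without neurons 7 and 8, alternatives chosen after seeing the data, Sst was at -0.82 and Bdnf at -0.027. Cnr1 was at 0.94 with library totals, 1.13 with limma-voom, 0.67 without neurons 7, 8 and 9, 1.35 without neurons 13 and 20 (also chosen after seeing the data) and -1.53 to 1.16 with single neurons left out, the highest without neuron 20, against -0.50 with all. Slc17a7 was at 2.14 with the depth covariate and -3.68 to 1.17 with single neurons left out, the highest without neuron 26. Soma Sst was at 4.05 with limma-voom and -2.64 to 4.96 with single neurons left out, the highest without neuron 9. Depth limits the low group most: 5 of its 11 dendrite libraries held 2829391 gene counts or fewer.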
